A study of Mus musculus with 2 samples.

Results

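Cells with cartilage RNA were examined among single cells of the mouse aorta. The members were selected on measured values: a cell barcode belonged to them when it held at least 300 genes, at most 10% mitochondrial UMIs (unique molecular identifiers, tags that let each captured RNA molecule be counted once) and a UMI in at least 2 of the 6 genes Acan, Col2a1, Chad, Cytl1, Hapln1 and Matn3. This gave 1023 members among 68463 kept barcodes, with 927 of 39503 from WT and 96 of 28960 from EC-iCD45KO. The label for these barcodes, chondrocyte-like cells of the plaque, held for only part of them: 157 members formed the cluster called chondrocyte-like here, other members with cartilage RNA lay in further clusters, and most members held exactly 2 of the 6 genes. Nothing in the labels places the cells in a plaque, since the tissue was given as aorta.

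Chondrocytes are the cells of cartilage. The transcription factors Sox9, Sox5 and Sox6 drive the genes of their matrix, a mesh of collagen fibrils filled with the large proteoglycan aggrecan. In growth cartilage they can mature into hypertrophic chondrocytes, which make type X collagen and lead into mineralised bone. In advanced atherosclerotic lesions of mice, cells with cartilage genes are known from calcifying areas, and smooth muscle cells are regarded as one of their sources.

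Both groups were on an ApoE-/-/C57BL/6 background, in which loss of apolipoprotein E raises blood cholesterol, and both ate a Western diet. WT mice had no other deletion named, whereas EC-iCD45KO mice carried a tamoxifen-inducible deletion of CD45, the leukocyte phosphatase encoded by Ptprc, in endothelial cells. The Cre line, the tamoxifen schedule, sex, age and number of pooled animals are not given in the sources used here, nor whether WT mice received tamoxifen. Liberase and collagenase types I and IV released the cells from minced aorta, and CD31 microbeads enriched them for cells with this endothelial surface protein, so the shares below are shares of an enriched suspension. Each group had 1 library, so preparation and group cannot be told apart, no difference had a replicate check and no p-value was computed. Intervals in parentheses are 95% intervals that cover counting error only.

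The WT library held 92058043 UMIs in 39849 barcodes and the EC-iCD45KO library 88967918 UMIs in 30278 barcodes. The members were deeper than the kept barcodes as a whole, with a median of 2370 UMIs against 1552 in WT and 4643 against 1438 in EC-iCD45KO. They ranged from 520 to 41715 UMIs in WT and from 703 to 36469 in EC-iCD45KO. The libraries shared 340 barcode sequences, and 0 of these were members in both. The deleted gene, Ptprc, stood in the members at 274 CPM in WT and 68.1 CPM in EC-iCD45KO. CPM is the gene's share of all UMIs summed over the barcodes, scaled to a total of 1e+06. The log2 ratio of EC-iCD45KO over WT was -2.01 (-2.41 to -1.63), and the other kept barcodes held 565 and 290 CPM. After thinning to 1000 UMIs a Ptprc UMI was present in 265 of 799 WT members (29.9 to 36.6%) and 10 of 95 EC-iCD45KO members (5.16 to 18.5%). Leukocyte markers moved with it: in the members the listed B-cell markers summed to 820 and 39.7 CPM and the T/NK markers to 353 and 78.3 CPM, while the macrophage markers summed to 2386 and 3225 CPM. Their part in the Ptprc difference was not tested. Fewer cells with the RNA and less RNA per cell cannot be told apart in such sums.

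The rule itself combined genes of different roles. Col2a1 encodes type II collagen, the main collagen of cartilage, and Acan encodes aggrecan. Hapln1 encodes the link protein that fixes aggrecan to hyaluronan, Chad encodes the cell-binding matrix protein chondroadherin, Matn3 encodes the adaptor matrilin 3, and Cytl1 encodes a secreted protein first known from blood cells and also made by chondrocytes. In GRCm38, Acan lies on the plus strand of chromosome 7 at 79053483 to 79115099, and Col2a1 on chromosome 15, minus strand, at 97975602 to 98004695. Chad lies on chromosome 11 at 94565047 to 94569127, Cytl1 on chromosome 5 at 37735519 to 37739820, Hapln1 on chromosome 13 at 89539796 to 89611652 and Matn3 on chromosome 12 at 8947929 to 8972028, all on the plus strand. Chad overlaps Acsf2 on the opposite strand.

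Most members met the rule with 2 genes and no more. In WT, 580 members (62.6%) held exactly 2 of the 6 genes and 141 (15.2%) held 4 or more. In EC-iCD45KO the numbers were 63 (65.6%) and 15 (15.6%), so the make-up by number of genes was similar in both libraries. Just outside the rule, with 1 gene, stood 4372 WT and 1984 EC-iCD45KO barcodes. The commonest pairs were Col2a1 with Cytl1 in WT, 205 members, and Acan with Cytl1 in EC-iCD45KO, 17 members.

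**Figure D1:**
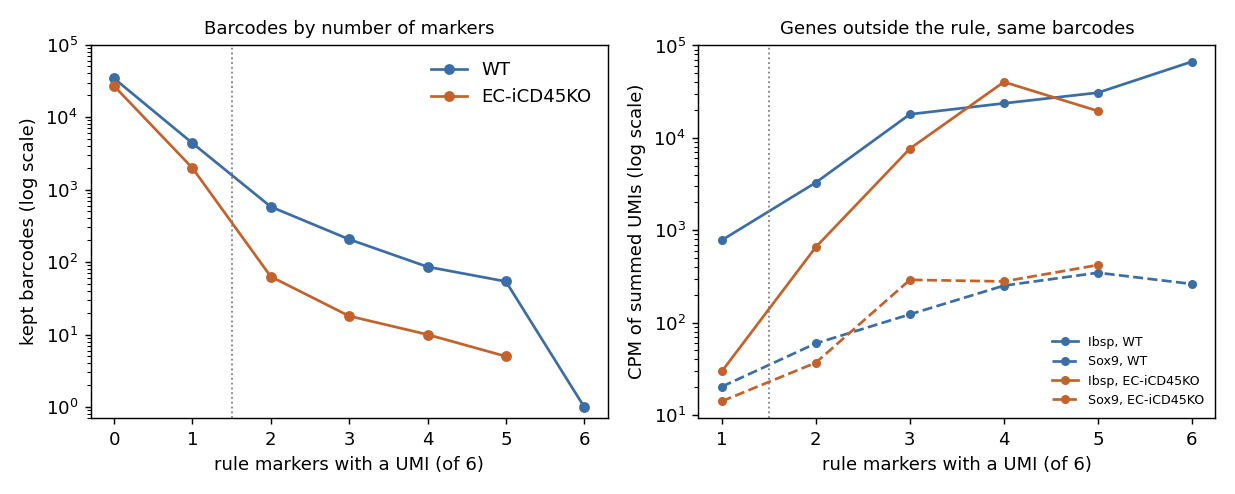
Left, kept barcodes (log scale) by the number of the 6 genes with a UMI; right, CPM of summed UMIs (log scale) of Ibsp (solid) and Sox9 (dashed) in the same barcodes, for WT (blue) and EC-iCD45KO (orange), with the rule to the right of the dotted line. Barcodes became fewer with each gene, and Ibsp went from 780 CPM at 1 gene to 30820 CPM at 5 genes in WT.

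Cytl1 carried much of the rule. A Cytl1 UMI was present in 83.5% of WT members and 78.1% of EC-iCD45KO members, and 466 (50.3%) and 47 (49.0%) met the rule without it. Members held 94.7% of all Col2a1 UMIs of kept WT barcodes and 93.2% of the Chad UMIs, but 55.2% of the Cytl1 UMIs. In EC-iCD45KO the same values were 88.6% for Col2a1, 89.0% for Chad and 16.4% for Cytl1. Most Cytl1 RNA of that library therefore lay outside the members.

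The summed level of each gene in the members was, by the rule, far above that in the other barcodes. Col2a1 stood at 2004 CPM in WT members and 809 CPM in EC-iCD45KO members, against 5.17 and 1.07 CPM in the other barcodes. Cytl1 stood at 2739 and 1489 CPM, Chad at 1102 and 385 CPM, and Acan at 423 and 261 CPM. Hapln1 stood at 217 and 63.6 CPM, and Matn3 at 3.0 and 11.4 CPM. Of the 6 genes, 5 had the higher summed level in WT members and Matn3 in EC-iCD45KO members, at unequal depths and from the genes that chose the members. By barcodes with a UMI the order differed, with Acan in 43.1% of WT and 57.3% of EC-iCD45KO members and Hapln1 in 17.7% and 25%. After thinning to 1000 UMIs Acan was in 22.3% and 22.1% and Cytl1 in 52.8% and 52.6%. Col2a1 was then in 39.9% and 31.6%, Chad in 24.0% and 20.0% and Hapln1 in 8.01% and 6.32%, with overlapping intervals. Matn3 was in 0.250% and 6.32%.

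Sox9 and Ibsp, which the rule did not use, were higher in barcodes with 4 or 5 of the genes than in those with 2. Sox9, the main transcription factor of cartilage, stood at 7.15 CPM in WT barcodes with none of the 6 genes, at 20.3 CPM with 1, at 59.6 CPM with 2, at 123 CPM with 3, at 251 CPM with 4 and at 347 CPM with 5. In EC-iCD45KO it stood at 5.02, 14.1, 36.8, 290, 279 and 420 CPM. Ibsp, which encodes bone sialoprotein of mineralising tissue, went in WT from 185 CPM with none of the genes to 3283 CPM with 2, and to 30820 CPM with 5. In EC-iCD45KO it stood at 12.2 CPM with none, 657 CPM with 2, 40250 CPM with 4 and 19522 CPM with 5, so it was lower at 5 genes than at 4. Barcodes with 2 genes thus held far less of both genes than those with 4 or 5.

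RNA of B cells went the other way in WT. Cd79a, a B-cell receptor component, stood at 828 CPM in WT barcodes with none of the 6 genes, 355 CPM with 2 and 63.6 CPM with 5. Igkc, the immunoglobulin kappa constant gene, stood at 18878, 22647 and 847 CPM, highest at 2 genes. The median depth grew along the same steps, from 1531 UMIs with none to 2158 with 2 and 8317 with 5. A deeper barcode has more chance to show a UMI of any gene, and the part of depth in this pattern was not tested.

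The share of barcodes that met the rule was higher in WT, at 2.35% (2.2 to 2.5), than in EC-iCD45KO, at 0.331% (0.269 to 0.405). After each barcode was thinned to 1000 UMIs, with shallower barcodes left out, the shares were 1.20% and 0.222%. With 3 genes required they were 0.878% and 0.114%. The share counts all other captured cells in its total, and these differed: B-cell markers led 7096 kept barcodes in WT and 719 in EC-iCD45KO. The part of this in the difference was not tested.

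Free RNA of cartilage genes was gauged in barcodes that should lack them. A barcode was said to be led by the marker list whose share of its UMIs stood highest over the mean profile of its own library. These barcodes include the few members so led, 87 of 3180 endothelial-led, 13 of 5321 T/NK-led and 15 of 7096 B-led barcodes in WT, so the shares below are not those of non-members alone. After thinning to 1000 UMIs, Col2a1 had a UMI in 0.523% of WT and 0.156% of EC-iCD45KO barcodes led by T/NK or B-cell markers. Members with 4 or more of the 6 genes were selected for such UMIs, so their shares are a description, at 68.0% (59.1 to 75.9) for WT and 66.7% (38.4 to 88.2) for EC-iCD45KO. Without thinning the lymphocyte shares were 0.870% and 0.136%, at median depths of 1880 and 2309 UMIs, and the member shares were 97.9% and 93.3%, at 5302 and 13022 UMIs.

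Cytl1 did not behave like the other rule genes in this comparison. After thinning it had a UMI in 75.8% of the WT members with 4 or more genes, in 25.5% of endothelial-led WT barcodes, in 8.90% of fibroblast-led and in 2.08% of lymphocyte-led barcodes. In EC-iCD45KO the endothelial-led share was 14.7%, the fibroblast-led share 7.56% and the lymphocyte-led share 2.34%. The endothelial share differed from the lymphocyte share by more than counting error in both libraries, so it was not at the level seen in lymphocytes. An endothelial barcode with Cytl1 therefore needed only 1 UMI of another rule gene to meet the rule.

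**Figure D2:**
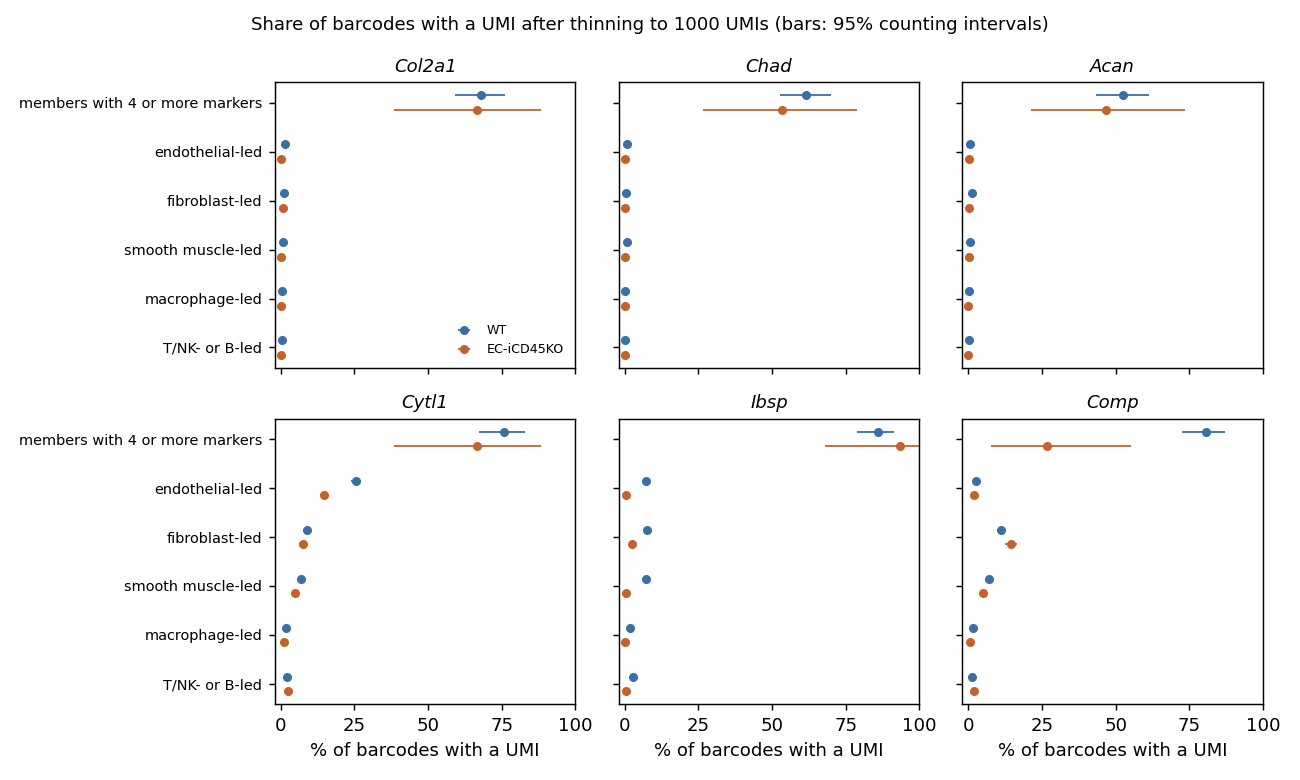
Share of barcodes with a UMI of each gene (% on the horizontal axis) after thinning to 1000 UMIs, for members with 4 or more of the 6 genes and for barcodes led by other marker lists; points are shares, bars 95% Clopper-Pearson intervals, blue WT and orange EC-iCD45KO. Col2a1, Chad and Acan lie near 0 in barcodes led by other lists, Cytl1 reaches 25.5% in endothelial-led WT barcodes, and Comp is at 80.5% in the WT members and 26.7% in the EC-iCD45KO members shown.

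Ibsp, which the rule did not use, was more widespread in WT. After thinning it had a UMI in 85.9% of the WT members with 4 or more genes, in 2.80% of lymphocyte-led and in 7.13% of endothelial-led WT barcodes. In EC-iCD45KO the values were 93.3%, 0.389% and 0.430%. The intervals of the 2 member shares overlapped, whereas the background shares were higher in WT.

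Which cell type list led a member varied widely. A list of cartilage collagens and their partners, which holds none of the 6 rule genes, led 332 of 927 WT members (35.8%) and 40 of 96 EC-iCD45KO members (41.7%). No list led 250 WT members (27.0%), haemoglobin genes led 90, endothelial markers 87, fibroblast markers 36, plasma-cell markers 34 and osteoblast markers 33. In EC-iCD45KO, fibroblast markers led 12 members, endothelial and osteoblast markers 10 each, and no list led 9. Cartilage-led barcodes that were no members also existed. In WT 284 of them held none of the 6 genes and 134 held 1, and in EC-iCD45KO the numbers were 450 and 119, so most cartilage-led barcodes lay outside the rule in both libraries.

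The members were clustered without the 6 rule genes, which gave 11 clusters. Cluster 1, with 134 WT and 23 EC-iCD45KO barcodes, held 83 of the 141 WT members with 4 or more genes and 12 of the 15 in EC-iCD45KO, and was singled out for that after its values were seen. Its 10 leading genes by fold over the other members were Col10a1, Chil1, Mmp13, Omd, Chad, Ibsp, Col2a1, Hp, Ecrg4 and Hapln1. This order pools the libraries: 1018 of the Mmp13 UMIs came from EC-iCD45KO, 98.7% of them in 1 barcode, against 146 from WT, and 5869 of the Chil1 UMIs came from the 23 EC-iCD45KO barcodes against 1590 from WT. The 10 genes included the rule genes Chad, Col2a1 and Hapln1 and the osteoblast marker Ibsp, and the cluster is called chondrocyte-like here. The name rests on genes the rule used and is a description. Of genes the rule did not use, Sox9 stood at 298 CPM over both libraries, and the list of cartilage collagens and partners led 98 WT and 13 EC-iCD45KO barcodes of the cluster. Its barcodes were deep, with medians of 9504 UMIs in WT and 13466 in EC-iCD45KO.

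The other clusters kept their numbers. Cluster 2 (207 WT barcodes) was led by Igha, Glycam1 and Mir142hg and cluster 3 (142 and 1) by Ighg2b, Umod and Wfdc17, both with lymphocyte or macrophage genes among their leading genes. Cluster 4 (124 and 13) was led by Sfrp1, Ramp2, Vwf and Ptprb and held 3 endothelial markers among its 10 leading genes. Its barcodes carried Cytl1 at 1468 CPM in WT and 1717 CPM in EC-iCD45KO, while Sox9 was at 20.8 and 16.3 CPM.

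Cluster 6 (25 WT and 43 EC-iCD45KO barcodes) was led by the chemokine genes Cxcl14 and Ccl19 and the matrix gene Fbln1. It held the largest number of EC-iCD45KO members of any cluster. Its Col2a1 level was 199 CPM in WT and 2385 CPM in EC-iCD45KO, the reverse of the order in cluster 1, and its Sox9 level was 82.5 and 72.3 CPM. Cluster 7 (61 and 4) was led by immunoglobulin genes, cluster 10 (33 and 11) by the contractile genes Tagln and Acta2, and cluster 11 (15 WT barcodes) by haemoglobin genes.

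Clusters 5, 8 and 9 held cartilage genes at low depth, at medians of 1189, 1190 and 996 UMIs in WT. Cluster 8 (57 and 1) was led by Serpinf1, Smim5, Phf11b, Cnmd and Mia and reached 10020 CPM of Comp over both libraries. Cluster 5 (79 WT barcodes) had Ibsp at 27808 CPM beside T-cell receptor genes, and cluster 9 (50 WT barcodes) had Col2a1 at 2514 CPM. They held 12, 16 and 15 WT members with 4 or more genes, and 1 of their barcodes came from EC-iCD45KO. The cartilage list led 49, 49 and 35 of their WT barcodes, and also 12 WT and 26 EC-iCD45KO barcodes of cluster 6, so most cartilage-led members lay outside cluster 1. Sizes of clusters are not compared between groups, because genes that define them differed between the libraries.

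**Figure D3:**
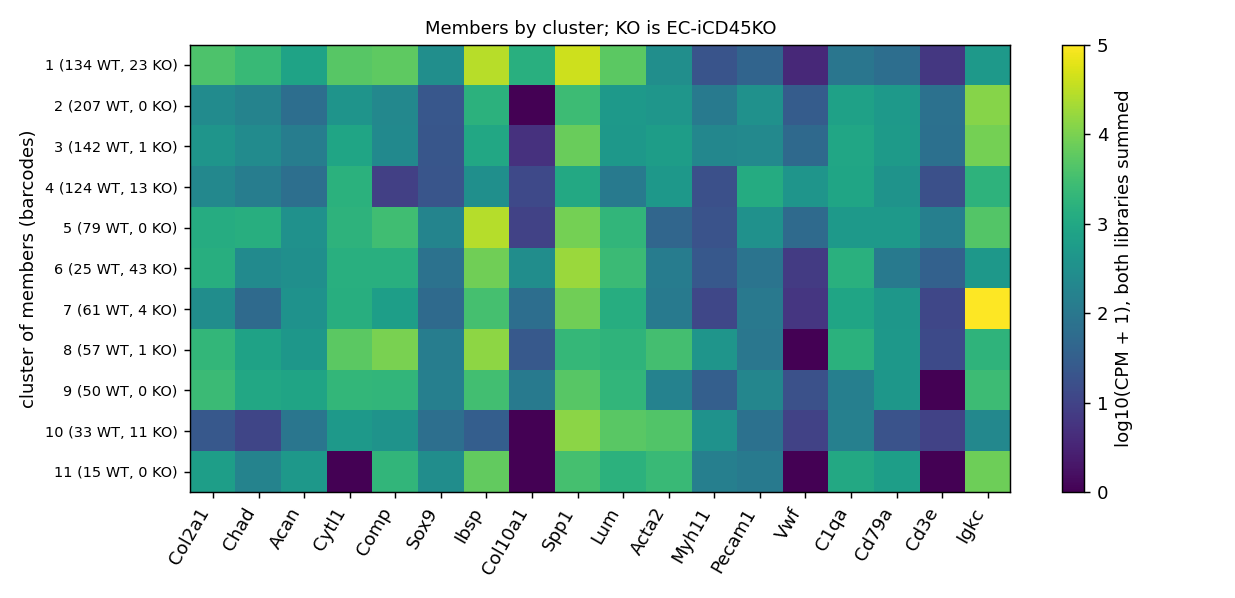
Level of 18 genes in the 11 clusters of members, as log10(CPM + 1) with UMIs of both libraries summed; the rows give the number of WT and EC-iCD45KO barcodes. Row 1 combines high Col2a1, Sox9, Ibsp and Col10a1 with low Vwf and Cd3e, row 4 holds Pecam1 and Vwf, row 7 Igkc and row 10 Acta2.

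Cluster 1 was checked for RNA of other cell types, whose listed markers are given as summed levels. The 9 macrophage markers summed to 493 CPM in WT and 269 CPM in EC-iCD45KO, against 7181 and 16492 CPM in the barcodes that were no members. The 7 B-cell markers summed to 206 CPM in WT and were all at 0 in EC-iCD45KO, and the 8 plasma-cell markers summed to 847 and 30.9 CPM. The 10 endothelial markers summed to 126 and 127 CPM, against 662 and 801 CPM outside the members. The 8 smooth muscle markers summed to 573 and 1308 CPM, against 1966 and 4363 CPM. The 7 neutrophil markers summed to 5.47 CPM in WT (8 UMIs) and 21.6 CPM in EC-iCD45KO (7 UMIs), against 243 and 670 CPM. Levels of all these lists were below those of the other barcodes, whereas the 9 fibroblast markers summed to 5538 and 6193 CPM, against 866 and 1002 CPM. Nearly all of that sum was Lum, lumican, at 5441 and 5933 CPM. Pi16, Clec3b, Dpep1 and C7, which are also on that list, were all at 0 in EC-iCD45KO and at most 2.05 CPM in WT. The other 5 genes, Lum, Pdgfra, Dpt, Serpinf1 and Cd34, reached a mean of 5 CPM over the libraries. Their median log2 ratio of EC-iCD45KO over WT was 0.86. Of these, 1 was at least 2-fold higher in EC-iCD45KO with a counting interval that excluded 0, and 0 were lower.

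Osteoblast markers summed to 30374 CPM in cluster 1 of WT and 22881 CPM in EC-iCD45KO, nearly all of it Ibsp. Markers of airway epithelium summed to 1.37 CPM in WT and were all at 0 in EC-iCD45KO, and tendon markers summed to 62.2 and 77.3 CPM. Ptprc was at 36.9 CPM in WT (32 of 134 barcodes) and 9.27 CPM in EC-iCD45KO (3 of 23). In EC-iCD45KO 1 of 9 macrophage, 5 of 8 plasma-cell, 6 of 9 T/NK, 3 of 10 endothelial, 1 of 8 smooth muscle and 4 of 9 fibroblast markers were at 0 in this cluster. The part of other cells' RNA in the differences below was not tested.

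The genes highest in members relative to all other barcodes were next taken from outside the rule. Of the 10 with the largest ratio in the lower of the 2 libraries, 4 were rule genes (Col2a1, Chad, Acan and Hapln1). The remaining genes were Col10a1, type X collagen of hypertrophic cartilage, Omd, a small matrix proteoglycan of bone, Fzd9, a Wnt receptor, Chil1, a chitinase-like secreted protein of chondrocytes and macrophages, and Bpifb1 and Lbhd2. The log2 ratio of members to others was 7.24 in WT and 9.29 in EC-iCD45KO for Col10a1, 6.38 and 6.58 for Omd, and 6.30 and 6.61 for Fzd9. It was 6.21 and 6.10 for Chil1, 5.97 and 7.81 for Bpifb1, and 6.29 and 5.91 for Lbhd2. Members were chosen from the same counts, so these ratios are a description. In EC-iCD45KO 61 of the 77 Col10a1 UMIs of members lay in 1 barcode, and without it the Col10a1 ratio was 7.05. Without the top barcode the ratio was 5.81 for Omd in EC-iCD45KO and 5.37 for Bpifb1 in WT. Col10a1 overlaps Nt5dc1 and Omd overlaps Cenpp on the opposite strand.

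Promoters are shown for 2 rule genes and for the 2 mineralisation genes that the rule did not use and that were high in the same barcodes, so that a reader can see the sequence before their start sites. Of 11 genes looked up, 10 had an entry among the RefSeq promoters of GRCm38.p6. Each line gives the 250 bases before the RefSeq start, on the plus strand, at chr11:94564797-94565046 for Chad, chr10:34389731-34389980 for Col10a1, chr7:79052976-79053225 for Acan and chr5:104299037-104299286 for Ibsp. For Acan and Ibsp the RefSeq start differs from the start of the gene in GENCODE M21, from which the gene positions were taken. Capitals mark a TATA box, TATAAA on either strand.
Chad: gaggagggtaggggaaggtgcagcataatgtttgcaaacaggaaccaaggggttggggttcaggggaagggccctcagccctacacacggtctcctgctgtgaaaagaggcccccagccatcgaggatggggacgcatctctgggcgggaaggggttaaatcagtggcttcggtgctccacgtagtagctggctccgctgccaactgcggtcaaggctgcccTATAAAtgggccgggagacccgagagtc
Col10a1: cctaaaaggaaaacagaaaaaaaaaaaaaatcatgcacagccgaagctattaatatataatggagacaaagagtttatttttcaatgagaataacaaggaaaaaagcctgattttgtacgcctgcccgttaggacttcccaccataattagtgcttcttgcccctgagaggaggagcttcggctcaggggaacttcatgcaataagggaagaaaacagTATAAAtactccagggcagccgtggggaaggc
Acan: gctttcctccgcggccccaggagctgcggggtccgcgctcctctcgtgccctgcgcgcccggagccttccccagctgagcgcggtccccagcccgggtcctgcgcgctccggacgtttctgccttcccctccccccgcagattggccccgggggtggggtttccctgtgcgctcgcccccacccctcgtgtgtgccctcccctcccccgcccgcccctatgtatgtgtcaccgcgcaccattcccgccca
Ibsp: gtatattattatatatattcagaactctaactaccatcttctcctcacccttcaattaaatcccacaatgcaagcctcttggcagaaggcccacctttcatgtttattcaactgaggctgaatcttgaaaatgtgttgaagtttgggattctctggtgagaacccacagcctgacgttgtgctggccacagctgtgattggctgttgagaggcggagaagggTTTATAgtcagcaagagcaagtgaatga
TATAAA stood at -28 to -23 in Chad and -32 to -27 in Col10a1, and its reverse complement TTTATA at -28 to -23 in Ibsp, counted back from the RefSeq start, while these letters are not in the Acan window. The motif on either strand was found in 13.0% of 27025 promoters of the same length. AACAAT, a SOX motif, occurs in 9.65% and TGTGGT, a RUNX motif, in 14.2% of them, and neither is in the 4 windows on either strand.

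Col10a1 in cluster 1 was found beside cartilage genes of earlier stages. Col2a1 is a rule gene, and 114 of the 134 WT barcodes held it, so its presence beside Col10a1 is a description. Of the 37 WT barcodes with a Col10a1 UMI, 36 also had Col2a1, 36 had Ibsp and 25 had Sox9. Of the 6 in EC-iCD45KO, all 6 had Col2a1 and Sox9 and 5 had Ibsp. In WT barcodes without Col10a1, 78 of 97 had Col2a1 and 69 had Sox9. In EC-iCD45KO barcodes without Col10a1, 10 of 17 had Col2a1 and 14 had Sox9. Whether Sox9 differs with Col10a1 was not tested.

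The libraries were then compared within the members and within cluster 1 over every gene whose mean reached 5 CPM. A gene was called when it differed at least 2-fold and its counting interval excluded 0. In the members, 401 of 10916 genes were higher in EC-iCD45KO (3.67%) and 661 were lower (6.06%). In cluster 1, 296 of 9770 genes were higher (3.03%) and 351 were lower (3.59%). The median log2 ratio over these genes was -0.04 in the members and -0.09 in cluster 1. Counts of called genes in the lists below are to be read beside the shares called over all genes, at which a short list holds few or no calls. Sums are dominated by deep barcodes, and cluster 1 rests on 23 barcodes in EC-iCD45KO. For named genes called in cluster 1, a ratio was therefore also taken without the barcode with the most UMIs of the gene in each library. It is given where it moved by over 1.5-fold or crossed the 2-fold call.

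Collagens and partners of the cartilage matrix were lower in EC-iCD45KO in cluster 1. Of 22 listed genes, 19 reached 5 CPM, 14 were called lower and 1 higher, with a median log2 ratio of -1.76, against a median of -0.34 for the same genes in the barcodes that were no members. Over all members 12 were called lower and 1 higher, with a median of -1.12, and over members outside cluster 1 the median was 0.01. With every barcode of cluster 1 given equal weight the median was -1.25, whereas over all members it was then -0.27. The median outside cluster 1 rests on 13 genes, and the members there fall into different clusters in WT and EC-iCD45KO, so it is not a comparison of like cells. Its difference from cluster 1 was not tested. The clustering left out only the 6 rule genes, so genes of this list could help to form cluster 1. Cartilage-led WT members also lay in clusters 5, 8 and 9. The ratios within cluster 1 may therefore not compare like cells either.

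Comp encodes cartilage oligomeric matrix protein, a pentamer that binds collagen. It stood in cluster 1 at 6899 CPM in WT and 1039 CPM in EC-iCD45KO, for a log2 ratio of -2.73 (-2.89 to -2.57). A Comp UMI was present in 118 of 134 WT and 12 of 23 EC-iCD45KO barcodes, and after thinning to 3000 UMIs in 81.2% (72.8 to 88.0) and 30.4% (13.2 to 52.9). The median barcode held 4421 CPM in WT and 55.8 CPM in EC-iCD45KO. In the barcodes that were no members Comp gave a ratio of 0.16, so the lower level was not shared by them. Thinning left out 22 WT barcodes and none of EC-iCD45KO.

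For the rule genes themselves the values in cluster 1 are a description, since they chose the members, and a deeper barcode meets the rule at a lower CPM (medians of 9504 UMIs in WT and 13466 in EC-iCD45KO). Col2a1 stood at 4808 CPM in WT and 915 CPM in EC-iCD45KO, with a log2 ratio of -2.39 (-2.57 to -2.23). The barcodes overlapped far more than for Comp, with medians of 1138 and 733 CPM and a Col2a1 UMI in 69.6% and 56.5% of barcodes after thinning, shares whose intervals overlap. The highest WT barcode reached 71429 CPM and the highest in EC-iCD45KO 4887 CPM. The medians of the 2 libraries thus differed less than the sums. In the barcodes that were no members the ratio was -2.28.

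The other rule genes, likewise a description, differed less in cluster 1. Chad stood at 2602 and 900 CPM, a log2 ratio of -1.53, with medians of 500 and 374 CPM per barcode. Hapln1 stood at 522 and 136 CPM, a ratio of -1.94, with medians of 116 and 141 CPM. Acan stood at 874 and 479 CPM, a ratio of -0.87, with medians of 463 and 446 CPM, and its UMI was present in 119 of 134 and 21 of 23 barcodes. For Acan and Hapln1 the typical barcode was close in the 2 libraries, and Hapln1 was higher in EC-iCD45KO by the median. Cytl1 stood at 5625 and 2773 CPM, a ratio of -1.02.

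The minor fibril collagens, which co-assemble with or decorate type II collagen, were called lower. Col11a1 stood at 379 CPM in WT and 15.5 CPM in EC-iCD45KO, for a log2 ratio of -4.62 (-6.24 to -3.39), with a UMI in 37 of 134 and 2 of 23 barcodes. Col9a3 gave 260 and 77.3 CPM, Col9a2 83.4 and 12.4 CPM and Col9a1 63.5 and 6.18 CPM. Col11a2, which pairs with Col11a1, gave 316 and 130 CPM. Col27a1 was level at 390 and 374 CPM. Fmod and Prelp, small proteoglycans that bind fibrils, gave 861 and 362 CPM and 504 and 254 CPM, and Mia, a secreted cartilage protein, 523 and 139 CPM. Cnmd, an inhibitor of vessel growth in cartilage, had 100 UMIs in WT, 59.0% of them in 1 barcode, and 0 UMIs in EC-iCD45KO, which with a floor of 3 counts over the group bounds the log2 ratio at -2.88. Without the top barcode the Cnmd bound was -1.59. Without the top barcodes the log2 ratio was -5.58 for Col11a1, -4.00 for Col9a1 and -3.38 for Col9a2.

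Prg4, the lubricant of the cartilage surface, was the gene of this list called higher. It stood at 724 CPM in WT and 3605 CPM in EC-iCD45KO, for a log2 ratio of 2.32 (2.19 to 2.44), and 2.04 without the top barcodes. A Prg4 UMI was present in 63 of 134 WT and 16 of 23 EC-iCD45KO barcodes, and the median barcode held 0 and 743 CPM. In the barcodes that were no members the ratio was 0.86. Prg4 overlaps Tpr on the opposite strand.

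**Figure D4:**
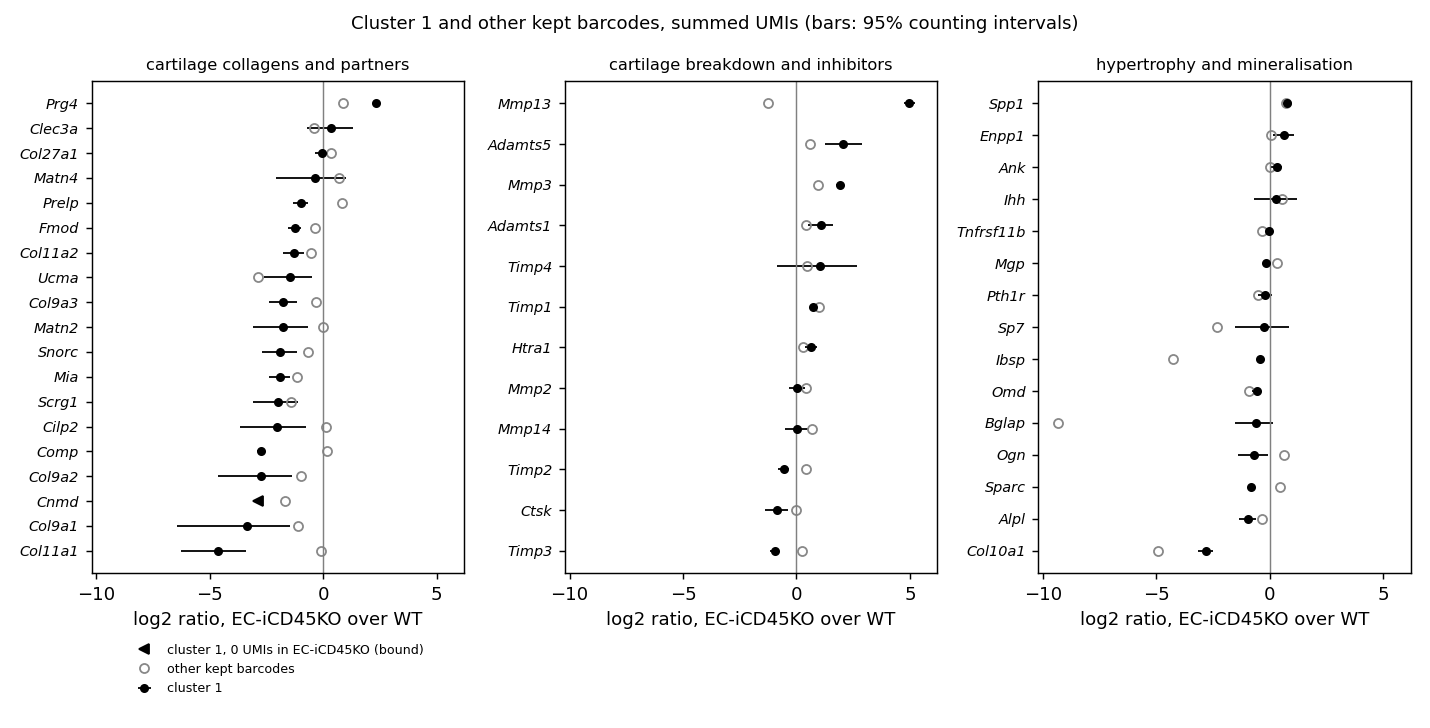
log2 ratio of EC-iCD45KO over WT for the genes of 3 lists with a mean of at least 5 CPM in cluster 1; filled points with 95% counting intervals are cluster 1, open points the barcodes that were no members, and the arrow a bound for Cnmd, with 0 UMIs in EC-iCD45KO. Most cartilage collagens and partners lie left of 0 in cluster 1, Prg4 lies at 2.32, and the Mmp13 point rests on 1 barcode.

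Transcription factors of cartilage showed no called difference in cluster 1, whereas over all members 1 of 9 was called higher and 0 lower. Of 12 listed factors, 8 reached 5 CPM in cluster 1 and none was called in either direction, with a median log2 ratio of -0.18. Over all genes of cluster 1, 3.03% were called higher and 3.59% lower, so the lack of calls among 8 genes is not read as a result. Sox9 stood at 288 CPM in WT and 340 CPM in EC-iCD45KO, a ratio of 0.24 (-0.08 to 0.54), with a UMI in 94 of 134 and 20 of 23 barcodes. Sox5 stood at 256 and 331 CPM, Sox6 at 288 and 257 CPM and Runx2, the factor of hypertrophy and bone, at 57.4 and 46.4 CPM. The median barcode held 154 CPM of Sox9 in WT and 299 CPM in EC-iCD45KO, and the mean of single-cell CPM gave a ratio of 0.65, so the typical barcode was higher in EC-iCD45KO by more than the sum.

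Enzymes that build the matrix were mostly level. Of 20 genes of proteoglycan synthesis, 18 reached the minimum in cluster 1, 0 were called higher and 2 lower, Csgalnact1 (51.9 and 12.4 CPM) and Papss2 (105 and 46.4 CPM), an enzyme that starts chondroitin sulfate chains and one that makes the sulfate donor. Csgalnact1 gave a log2 ratio of -2.07, and -2.88 without the top barcodes. Of 20 genes of collagen processing, 18 reached it, 0 were called higher and 3 lower, P3h1, Loxl3 and Adamts2. Serpinh1, the collagen chaperone, stood at 1164 and 1209 CPM, and Plod2, a lysyl hydroxylase, at 291 and 269 CPM. The median log2 ratios were -0.09 and -0.16, against 0.25 and 0.61 for the same genes in the barcodes that were no members.

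Among the genes of cartilage breakdown and its inhibitors, 12 of 13 reached the minimum in cluster 1, 4 were called higher and 0 lower, with a median log2 ratio of 0.68 against 0.43 in the barcodes that were no members. Mmp3, stromelysin, stood at 452 CPM in WT and 1700 CPM in EC-iCD45KO, in 23 of 134 and 7 of 23 barcodes. Adamts5, an aggrecanase, stood at 19.1 and 80.4 CPM, and Adamts1 at 58.8 and 124 CPM. Without the top barcodes Adamts1 gave a log2 ratio of 0.95, under the 2-fold call. Timp3, an inhibitor of these proteases, stood at 1672 and 856 CPM, a ratio of -0.97 (-1.15 to -0.79), which is under the 2-fold call. Without the top barcodes the Timp3 ratio was -1.08 (-1.28 to -0.89), and with means of single-cell CPM -1.02, both past 2-fold. Timp3 overlaps Syn3 on the opposite strand.

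Mmp13, the collagenase of hypertrophic cartilage, was the fourth gene called higher, and that call rested on 1 barcode. It stood at 99.8 CPM in WT and 3147 CPM in EC-iCD45KO, with 98.7% of the EC-iCD45KO UMIs in 1 barcode. Without the top barcode of each library the log2 ratio was -0.64. A UMI was present in 13 of 134 WT and 2 of 23 EC-iCD45KO barcodes.

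Hypertrophy and mineralisation genes formed the most abundant group, at a summed 127885 CPM in cluster 1 of WT and 126925 CPM in EC-iCD45KO. Of 18 listed genes, 15 reached the minimum, 0 were called higher and 1 lower, with a median log2 ratio of -0.25 against -0.32 in the barcodes that were no members. Spp1, osteopontin, stood at 37351 and 63979 CPM, a ratio of 0.78, beside 0.73 in the barcodes that were no members. The median barcode held 12255 CPM of Spp1 in WT and 56796 CPM in EC-iCD45KO, and the mean of single-cell CPM gave a ratio of 1.01, so the typical barcodes differed more than the sums. Sparc, osteonectin, stood at 37135 and 20931 CPM, and Mgp, an inhibitor of calcification, at 16742 and 15016 CPM. For Mgp 51.5% of the EC-iCD45KO UMIs lay in 1 barcode, and without the top barcodes its ratio was -0.90.

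Ibsp stood in cluster 1 at 30221 CPM in WT and 22671 CPM in EC-iCD45KO, for a log2 ratio of -0.41 (-0.45 to -0.38). It was present in 120 of 134 and 21 of 23 barcodes, and the median barcode held 14409 and 15295 CPM. In the barcodes that were no members the log2 ratio was -4.25, far lower than in the cluster.

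Col10a1 was the gene of this list called lower. It stood at 1677 CPM in WT and 238 CPM in EC-iCD45KO, for a log2 ratio of -2.82 (-3.16 to -2.49), and -4.62 without the top barcodes. In EC-iCD45KO 79.2% of its 77 UMIs lay in 1 barcode. A UMI was present in 37 of 134 and 6 of 23 barcodes, and after thinning in 22.3% (15.0 to 31.2) and 17.4% (5.0 to 38.8). The intervals of the shares overlapped, so a difference in the share of barcodes was not detectable at this depth. In the barcodes that were no members Col10a1 stood at 4.26 and 0.139 CPM, a ratio of -4.94, so the lower level was not limited to the cluster.

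Chil1 was higher in EC-iCD45KO in cluster 1 and in the barcodes that were no members. In cluster 1 it stood at 1086 CPM in WT and 18145 CPM in EC-iCD45KO, for a log2 ratio of 4.06 (3.98 to 4.14), in 48 of 134 and 14 of 23 barcodes. The ratio was 4.18 in the barcodes that were no members, so the higher level was also seen outside the members. The median barcode of cluster 1 held 0 CPM in WT and 3774 CPM in EC-iCD45KO.

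Lcn2, which encodes the iron-siderophore carrier lipocalin 2 of acute inflammation, stood in cluster 1 at 739 CPM in WT and 7222 CPM in EC-iCD45KO, for a log2 ratio of 3.29 (3.18 to 3.39). It was present in 62 of 134 and 18 of 23 barcodes, and after thinning in 35.7% (26.9 to 45.3) and 65.2% (42.7 to 83.6). The ratio was 3.03 without the top barcodes and 1.72 in the barcodes that were no members. Neutrophil markers led 714 kept barcodes in WT (1.81%) and 1419 in EC-iCD45KO (4.90%). The part of neutrophil RNA in the values of this paragraph was not tested. Hp, haptoglobin, another acute-phase gene, stood at 649 and 2433 CPM. Saa3 and Saa2, serum amyloid genes, stood at 17.8 and 3441 CPM and at 0 and 420 CPM, but 56.5% and 83.8% of their EC-iCD45KO UMIs lay in 1 barcode. Without the top barcodes the log2 ratio went from 7.60 to 8.92 for Saa3, and the bound from 7.68 to 5.09 for Saa2, and reads of this gene family can be split between near-identical copies. Bpifb1 stood at 88.8 and 594 CPM, in 29 of 134 and 6 of 23 barcodes.

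**Figure D5:**
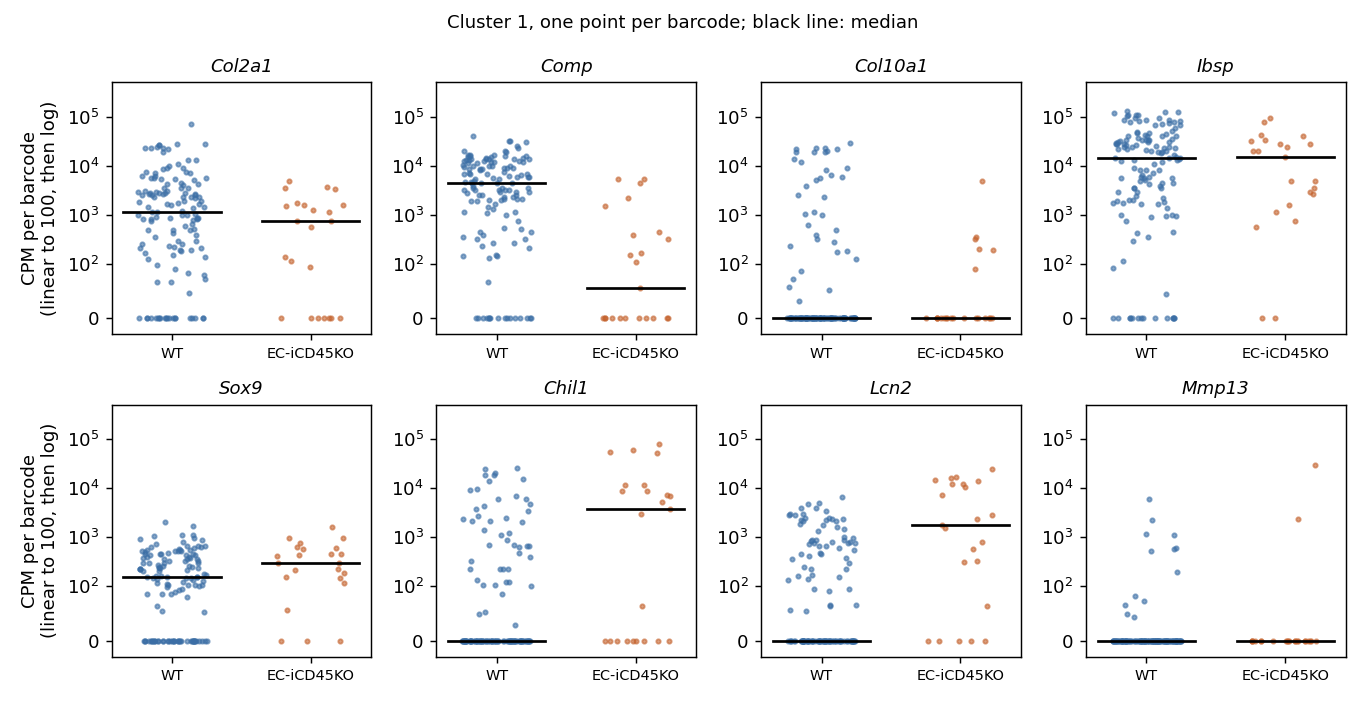
Level of 8 genes in each barcode of cluster 1, as CPM (axis linear to 100 and logarithmic above), for 134 WT and 23 EC-iCD45KO barcodes; black lines are medians. Comp and Lcn2 shift between the libraries, with medians of 4421 against 55.8 CPM and 0 against 1743 CPM, while Sox9 and Ibsp overlap and Mmp13 is high in single barcodes.

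Growth factor genes that control cartilage showed no common direction. Of 34 listed genes, 27 reached the minimum in cluster 1, 1 was called higher and 2 lower, with a median log2 ratio of -0.25. Over all genes of cluster 1, 3.03% were called higher and 3.59% lower, so these few calls are not read as a result about the list. The gene called higher was Id1, a target of BMP signals, at 245 and 529 CPM, a ratio of 1.11 (0.84 to 1.38), present in 86 of 134 and 22 of 23 barcodes. Gdf10, a ligand of the BMP family, stood at 575 and 628 CPM, and Frzb, a Wnt antagonist of cartilage, at 574 and 405 CPM. Ccn2, a more abundant gene of the list, had medians of 2226 CPM per barcode in WT and 1887 CPM in EC-iCD45KO. Pth1r, the receptor for parathyroid hormone and its related peptide, belongs to the list of hypertrophy and mineralisation genes and stood at 389 and 334 CPM.

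Contractile smooth muscle genes were higher in EC-iCD45KO both in the members and outside them. Over all members, 9 of 14 genes were called higher and 0 lower, with a median log2 ratio of 1.14, and the barcodes that were no members gave 1.14 as well, a difference that was not tested. The member median was 0.69 with 3 rule genes required and 0.84 with means of single-cell CPM. Cluster 10, led by contractile genes, held 3.56% of the WT members and 11.5% of the EC-iCD45KO members. The member median is therefore not a comparison of like cells. Acta2, smooth muscle actin, stood at 817 CPM in WT and 1752 CPM in EC-iCD45KO, and Tagln, transgelin, at 706 and 1808 CPM. In cluster 1, 6 of 13 genes were called higher, with a median of 1.08, but 86.0% of the Acta2, 77.1% of the Tagln and 93.2% of the Myl9 UMIs of EC-iCD45KO lay in 1 barcode. Without the top barcodes of each gene the log2 ratio was -1.74 for Acta2, 0.49 for Tagln and 1.12 for Myl9. Without the barcode with the most UMIs of the list in each library the median was 0.08 over 11 genes, so much of the higher summed level rested on single barcodes. With every barcode of cluster 1 given equal weight the contractile median was 0.48.

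Genes of modulated smooth muscle cells, which lose contractile proteins and make matrix, were abundant in cluster 1. They summed to 47122 CPM in WT and 50706 CPM in EC-iCD45KO, against 6570 and 9027 CPM in the barcodes that were no members. Over all members 0 of 15 were called higher and 1 lower, with a median log2 ratio of 0.30, whereas the median was -0.13 in cluster 1 and 0.76 in members outside it. Fn1, fibronectin, stood in cluster 1 at 4994 and 5042 CPM, Lum, lumican, at 5441 and 5933 CPM, and Dcn, decorin, at 15034 and 20287 CPM. No glycolysis or hypoxia gene among 17 was called in cluster 1, and of 15 early response genes, which tissue digestion can induce, 1 was called higher, Hspa1b. Beside the 3.03% and 3.59% of all genes called higher and lower there, these counts are not read as results about the lists.

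Over all members the 5 genes furthest below WT in EC-iCD45KO were genes of blood cells, while the 5 furthest above it were Saa2, Saa3, Mmp13, Chil1 and Lcn2, described above. Ighm, the immunoglobulin mu gene, stood at 1777 CPM in WT members and 29.5 CPM in EC-iCD45KO members, Ighg3 at 1315 and 1.14 CPM, Bank1, a B-cell adaptor, at 281 and 5.68 CPM, and the alpha globin genes Hba-a1 and Hba-a2 at 192 and 3.41 CPM and at 137 and 2.27 CPM. In the barcodes that were no members Ighm and Ighg3 gave log2 ratios of -4.70 and -9.34, and Hba-a1 gave -0.32. Of these, Ighm, Ighg3, Bank1 and Hba-a1 had no UMI in cluster 1 of EC-iCD45KO. Ighg2c went the other way, from 301 to 1622 CPM in members and from 1399 to 5.07 CPM in the other barcodes. Of its EC-iCD45KO member UMIs 44.9% lay in 1 barcode, and no ratio without that barcode is given. Near-identical globin and immunoglobulin genes can exchange reads, and their single values are uncertain.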

How the data were processed

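Single-cell RNA was measured in 2 libraries, 1 per group. The authors deposited whole-number UMI counts per gene and barcode, written by Cell Ranger 7.1.0 per the file headers, on mm10 per the submitters' processing notes. Annotation version, intronic counting and cell calling are not given in the sources used here. Of 32285 gene IDs, 32158 matched GENCODE M21 (GRCm38), which gave positions.

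The members and gene lists were chosen with earlier results of these data known. Kept barcodes had 300 or more genes and 10% or less mitochondrial UMIs. UMIs were summed per library and scaled to 1e+06 (CPM). Intervals are exact Poisson for levels, Clopper-Pearson for shares and conditional binomial for ratios, at 95%. Where a group had 0 UMIs, a floor of 3 counts over the group was used. The intervals were tested on simulated data. Lists led a barcode with at least 3 UMIs, 2 genes and a 2-fold excess over the mean profile. Scrublet with its own threshold marked 9 of 39503 and 0 of 28960 barcodes, so it had not worked, and doublets were kept. Among the 10% highest scores were 14 WT (1.51%) and 8 EC-iCD45KO (8.33%) members. The alternative without the top 10% of scores changed few members and cannot show what part doublets had. Members were clustered together on 2000 variable genes without the 6 rule genes, with 20 components, 15 neighbours and Leiden resolution 0.5 (scanpy 1.11.5, leidenalg 0.10.2).

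Named genes were the rule genes, list members and the 10 with the largest ratio of members to others. The 5 largest differences in each direction with a mean of at least 50 CPM were added, as they stood and relative to the other barcodes. List members were to be named with the most abundant first, which was not kept for the growth factor list. Genes were also named for single calls after their values were seen. Other tools were scipy 1.17.1, edgeR 4.0.16 (TMM factors only) and Python 3.11.15.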

Additional observations from a re-analysis of the deposited data

How the results depend on the processing

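No paired analysis was possible because 1 library stood for each group. The share of barcodes that met the rule was higher in WT under all 7 alternatives, and its value moved under some, which for a share means past its own 95% counting interval. In WT it went from 2.35% to 0.878% with at least 3 genes, 2.55% without the top 10% of doublet scores, 1.20% after thinning to 1000 UMIs and 1.18% without Cytl1. In EC-iCD45KO it went from 0.331% to 0.114% with at least 3 genes, 0.429% with a stricter cell filter (500 genes, 5% mitochondrial), 0.222% after thinning to 1000 UMIs and 0.162% without Cytl1. The medians of 3 lists (cartilage, contractile and modulated smooth muscle) were each recomputed under 14 alternatives, and those of the other lists were not. A median counted as unmoved where it lay between the medians of its genes' lower and upper counting bounds. The cartilage median of -1.12 was unmoved under 12, from -1.76 in cluster 1 to -1.07 without the top 10% of doublet scores, was -0.27 with means of single-cell CPM and reversed to 0.011 in members outside cluster 1. The contractile median of 1.14 was unmoved under 11, was 0.69 with at least 3 genes, 0.48 with means of single-cell CPM in cluster 1 and 0.084 in cluster 1 without the barcode with the most list UMIs in each library. The modulated smooth muscle median of 0.30 was 0.69 with means of single-cell CPM and 0.76 outside cluster 1. In cluster 1 it reversed to -0.13, to -0.054 with means of single-cell CPM and to -0.053 without the barcode with the most list UMIs. The cluster chosen at Leiden resolution 1 held the same numbers of barcodes, 134 WT and 23 EC-iCD45KO, and gave the same 3 medians. It adds no separate check, although it is counted among the 14 alternatives. The causes were not tested. The alternatives on cluster 1, the members outside it, resolution 1 and left-out barcodes were chosen after seeing the data. Members free of immune and endothelial markers gave no value, since 0 of 927 and 0 of 96 were free of them. With 96 EC-iCD45KO members, depth limits genes under about 5 CPM.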
